A study of Danio rerio with 12 samples.

Results

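The genes examined were those of fatty acid uptake and oxidation in regenerating zebrafish ventricles. They were chosen by symbol, as the fatty acid binding proteins (fabp), fatty acid transporters (slc27a, cd36), perilipins (plin), acyl-CoA synthetases (acsl), carnitine palmitoyltransferases (cpt1, cpt2), acyl-CoA dehydrogenases (acad), electron transfer flavoproteins (etf), the later enzymes of the spiral (hadh, acaa, ech1, echs1, eci1, eci2) and the regulators ppara, ppard, pparg and ppargc1. The rule found 61 genes with 60 symbols, since slc27a1b stood on 2 gene identifiers, of 32105 genes in the table. Of the 61, 48 had enough reads to be tested, as had 15602 genes in all.

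The tested animals were grl5nt-/- fish, which are homozygous for a small deletion in grl, and the controls were WT siblings. grl, listed in the table as hey2, encodes a basic helix-loop-helix repressor of the Hairy family, and the deletion is carried by every cell of the fish, so a difference can arise in any cell type of the ventricle. All fish were of the AB strain, 5 months old and otherwise untreated, and the tip of the ventricle had been resected 7 days before collection (7 dpa). RNA from 6 pooled ventricles made a replicate, with 3 replicates per genotype, and the remaining 6 samples of the series were not analysed here.

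The heart takes up fatty acids through membrane transporters and carries them in the cytosol on fatty acid binding proteins. Acyl-CoA synthetases activate them, the carnitine shuttle moves long chains into mitochondria, and there the acyl-CoA dehydrogenases begin each round of beta-oxidation, handing electrons to the respiratory chain through the electron transfer flavoproteins. Hydratases, dehydrogenases and thiolases complete the round, and the Ppar nuclear receptors with the Ppargc1 coactivators are known to switch many of these genes on. Adult heart muscle relies on this pathway for much of its energy, and immature heart muscle relies more on glucose.

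Library totals ran from 12520034 to 15006574 counts, so that 3 counts, taken as the limit of detection, corresponded to 0.154 to 0.290 CPM (counts scaled to library size with trimmed mean of M values, TMM). In 3 libraries (grl5nt-/- replicate 1, WT replicates 1 and 2) the mitochondrial gene mt-co1 had 0 counts, and in the others (grl5nt-/- replicates 2 and 3, WT replicate 3) it had 583890 to 739939. This split is no labelled batch, but it ran through many genes: 24.1% of all genes tested did not overlap between its sides and were higher with mt-co1 reads, and 27.1% were lower. Results are therefore given within each side of it as well. hey2 itself had 15.4, 18.7 and 18.3 CPM in grl5nt-/- libraries, against 13.1, 10.5 and 9.86 CPM in WT libraries, and since the deletion is small this level does not check the genotype. The tissue label was met by its markers: 8 cardiomyocyte genes summed to 26300 to 36126 CPM in grl5nt-/- and 26341 to 31651 CPM in WT libraries. Of these genes, actc1a was far lower in grl5nt-/- replicate 1, at 592 CPM, against 4361 to 8883 CPM in the other libraries.

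No member was called different between grl5nt-/- and WT ventricles. In edgeR (quasi-likelihood, p adjusted over all genes by Benjamini-Hochberg), 0 of the 48 members had an adjusted p below 0.05, where 0.0769% of all genes tested did, and DESeq2 and limma also called 0. At an unadjusted p below 0.05 there were 5 members: fabp3, acsl4a and ech1 were higher in grl5nt-/- (background 4.22% of genes in that direction), and plin2 and pparaa were lower (background 6.35%). This number changed with single libraries, as did the share of all genes at that threshold, which was 10.6% with all 6 libraries. It was 0 without grl5nt-/- replicate 2 (5.8% of all genes) or without WT replicate 2 (4.95%), 1 without WT replicate 1 (5.16%), 3 without grl5nt-/- replicate 3 (5.5%), 12 of 49 without grl5nt-/- replicate 1 (26% of all genes) and 13 of 48 without WT replicate 3 (22.2%).

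The log2 fold change of normalized counts was above 0 in 36 of the 48 members, against 46.9% of all genes, and its median was 0.27 in the members, against -0.05 over all genes. With the size factors of DESeq2 in the same edgeR fit the median was 0.31 with 38 of 48 above 0. With edgeR on genes of at least 1 FPKM on average it was 0.22 with 33 of 44 above 0. The direction against 0 differed on the deposited FPKM, where unit, scaling, filter and test all differ. FPKM are fragments scaled to exon length and library size, without the TMM factors, and the part of each difference was not tested. There limma on log2(FPKM + 1) gave a median of -0.04 with 20 of 44 members above 0, beside a median of -0.22 over all genes, so that the members lay above the middle of all genes on both scales, but above 0 on the first only. Within the libraries without mt-co1 reads the members' median difference of log2 CPM was 0.31, and within those with them it was 0.21. Each side rests on 1 library of a genotype, grl5nt-/- replicate 1 on the first and WT replicate 3 on the second. Groups did not overlap in 9 members: 7 were higher in grl5nt-/- (fabp3, fabp11a, acsl4a, cpt2, ech1, hadhaa and hadhab), where 6.95% of all genes were, and pparaa and cpt1cb were lower, where 8.64% were. In FPKM 6 members did not overlap and were higher (fabp3, acsl4a, cpt1b, etfdh, hadhb and slc27a1b), where 4.27% of all genes were, and none was lower, where 10.8% were, so fabp3 and acsl4a did not overlap on either scale. The difference was above 0 on both sides of the split in 33 members, where 31.3% of all genes were, and below 0 on both in 6, where 33.3% were. In a fit with the split as a term, fabp3 was called (adjusted p = 0.048, edgeR), where 1.54% of all genes were, and 14 members were higher at an unadjusted p below 0.05 (background 8.4%) and 3 lower (background 9.66%).

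**Figure D1:**
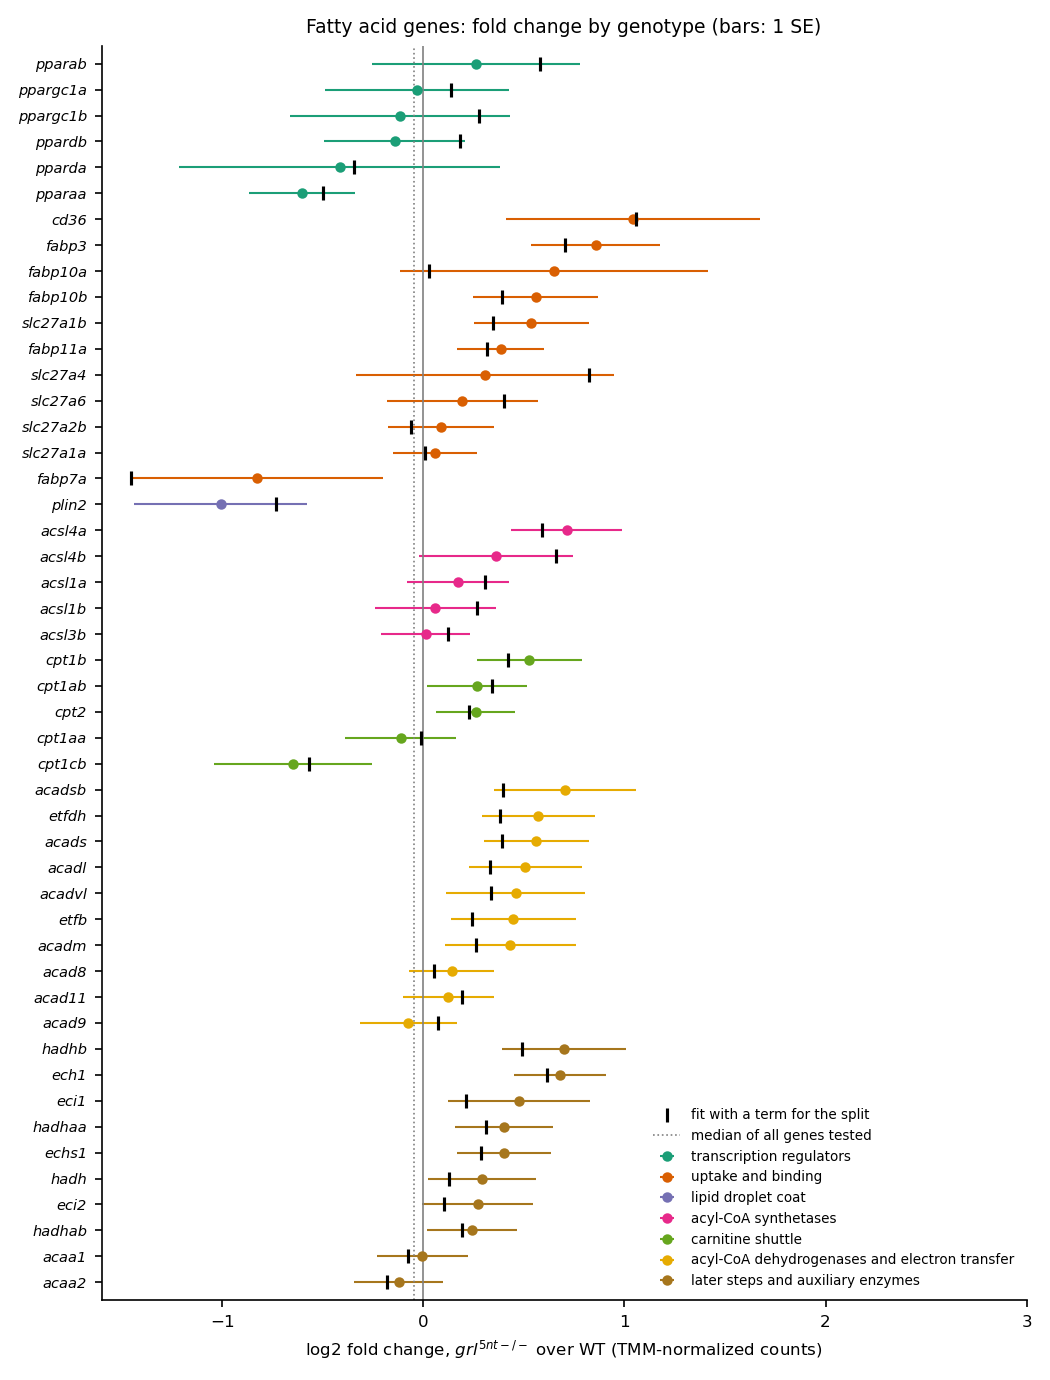
Log2 fold change of grl5nt-/- over WT (horizontal axis) for the 48 members tested, in rows coloured by role. Points and bars give the edgeR estimate with 1 SE, black ticks the estimate with a term for the split, and the dotted line the median of all genes (-0.05). Of the 48 points, 36 lie above 0, with cd36 farthest to the right and plin2 farthest to the left.

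Ordered by level per transcript length, the list was led by binding and by the first steps of oxidation. Averaged over the 6 libraries, fabp3 had the highest value at 1031 FPKM, and its lowest library (723 FPKM) lay above the highest of the next gene, acadvl (651 FPKM), the very long chain acyl-CoA dehydrogenase. acadvl averaged 555 FPKM and was followed by acadm (435 FPKM), fabp11a (374 FPKM), etfb (285 FPKM), acadl (274 FPKM) and hadhb (233 FPKM), whose ranges each overlapped the next. In all, 12 members averaged at least 100 FPKM, 27 at least 10 and 44 at least 1. The regulators stood far lower, ppargc1a being the highest of them at 8.81 FPKM.

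**Figure D2:**
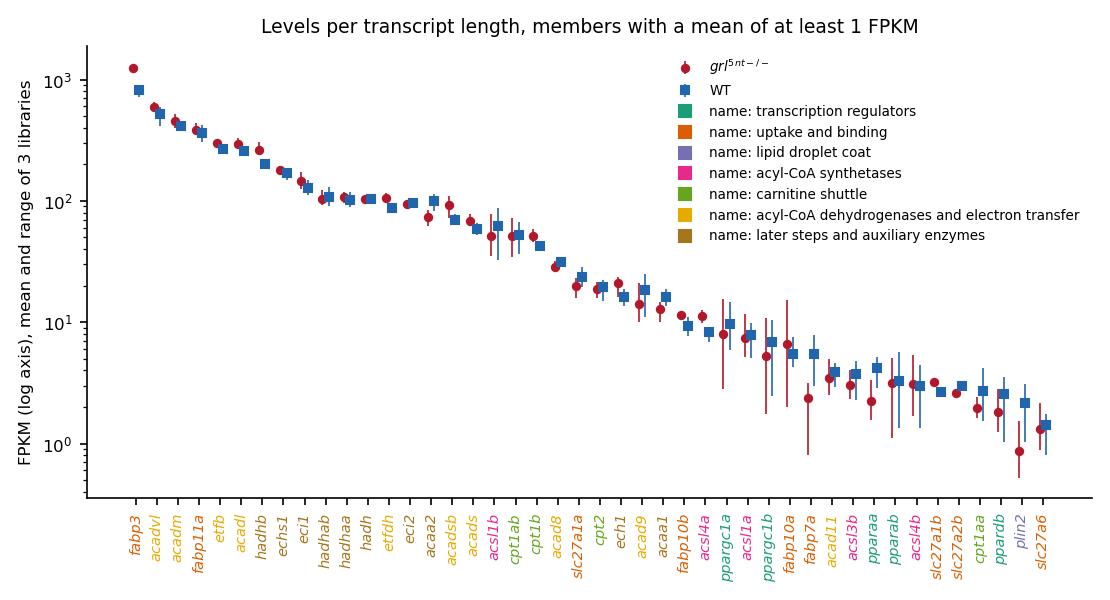
FPKM on a log axis for the 44 members with a mean of at least 1 FPKM, in descending order, with grl5nt-/- circles left of WT squares. Symbols are means of 3 libraries and bars run from the lowest to the highest library. fabp3 stands clear of the rest in both genotypes, and its bars do not overlap between them.

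Among the 20 uptake and binding genes, 11 were tested and 10 of those had a log2 fold change above 0, with a median of 0.38 over the 11. fabp3, the binding protein of heart and muscle (chromosome 19, 43385843 to 43423869, GRCz10), had 1240, 1622 and 1598 CPM in grl5nt-/- libraries, against 598, 759 and 1104 CPM in WT libraries. Every grl5nt-/- library lay above every WT library, and in CPM the libraries with mt-co1 reads were the higher ones within each genotype. In FPKM, which lack the TMM factors, the order within the mutants differed. It was 1292 in replicate 1, which had no mt-co1 reads, against 1198 and 1227 in replicates 2 and 3. edgeR put the log2 fold change at 0.86 (SE 0.32, adjusted p = 0.423), and at 0.71 (SE 0.14) with the term for the split. On the FPKM scale fabp3 averaged 1239 ± 47.9 in grl5nt-/- and 822 ± 86.4 in WT ventricles (SD, n = 3 each), again without overlap. It made up 74.1%, 75.8% and 76.3% of the summed fabp FPKM in grl5nt-/- libraries, against 62.2%, 69.3% and 72.8% in WT libraries, so its share was also higher in each mutant library.

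fabp11a, a binding protein gene of the fish-specific fabp11 pair, had 262, 311 and 287 CPM in grl5nt-/- libraries, against 217, 200 and 241 CPM in WT libraries. These did not overlap and gave an edgeR estimate of 0.38 on the log2 scale (SE 0.22, adjusted p = 0.541), but its FPKM did overlap (385 ± 45.1 in grl5nt-/- and 363 ± 56 in WT, SD, n = 3 each). fabp10b had 14.5, 18.9 and 19 CPM in grl5nt-/- libraries, against 9.54, 8.58 and 17.5 CPM in WT libraries, where WT replicate 3 lay among the mutants. fabp7a, a binding protein known from brain and glia, ran the other way with 0.949, 5.23 and 5.03 CPM in grl5nt-/- libraries, against 3.03, 8.34 and 8.39 CPM in WT libraries, and its groups overlapped (log2 fold change -0.83, SE 0.63, and -0.33 without grl5nt-/- replicate 1).

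fabp10a, the liver binding protein, had 13.2 CPM in grl5nt-/- replicate 3 and 1.56 and 1.8 CPM in the other mutant libraries, against 4.1, 2.48 and 3.81 CPM in WT libraries. Without grl5nt-/- replicate 3 its log2 fold change was -1.04, against 0.65 with it, so that library set its sign. The liver genes apoa2, fga and fgb were also highest in that library, with 104, 19 and 14 counts, against at most 25, 6 and 8 counts in any other, and the part of liver RNA in the fabp10a value was not tested. Over the whole list of 12 hepatocyte markers the summed level ran from 152 to 227 CPM in grl5nt-/- and from 158 to 245 CPM in WT libraries, most of it from tfa. Without tfa the sum was 2.98, 4.63 and 27.5 CPM in grl5nt-/- libraries, against 3.13, 1.77 and 7.69 CPM in WT libraries, and 9 of the 11 other markers were highest in grl5nt-/- replicate 3.

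Of the transporters, slc27a1a was the most expressed, holding 68.6% to 74.2% of the summed slc27a FPKM in grl5nt-/- and 72.9% to 76.7% in WT libraries. It had 59.8, 75.2 and 55.9 CPM in grl5nt-/- libraries, against 63.2, 54.5 and 65.7 CPM in WT libraries, with a log2 fold change of 0.06 (SE 0.21). Its partner slc27a1b had 13, 18.6 and 19.3 CPM in grl5nt-/- libraries, against 9.8, 9.52 and 15.8 CPM in WT libraries, where WT replicate 3 exceeded the lowest mutant (edgeR log2 fold change 0.54, SE 0.28, adjusted p = 0.522). cd36, the scavenger receptor that carries fatty acids into muscle and fat cells in mammals, was scarce here at 1.42, 2.14 and 0.387 CPM in grl5nt-/- libraries, against 0.41, 0.828 and 0.699 CPM in WT libraries. Its 2 highest values were mutant and so was its lowest, so that its log2 fold change of 1.04 came with an SE of 0.63 and was 0.54 without grl5nt-/- replicate 2.

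**Figure D3:**
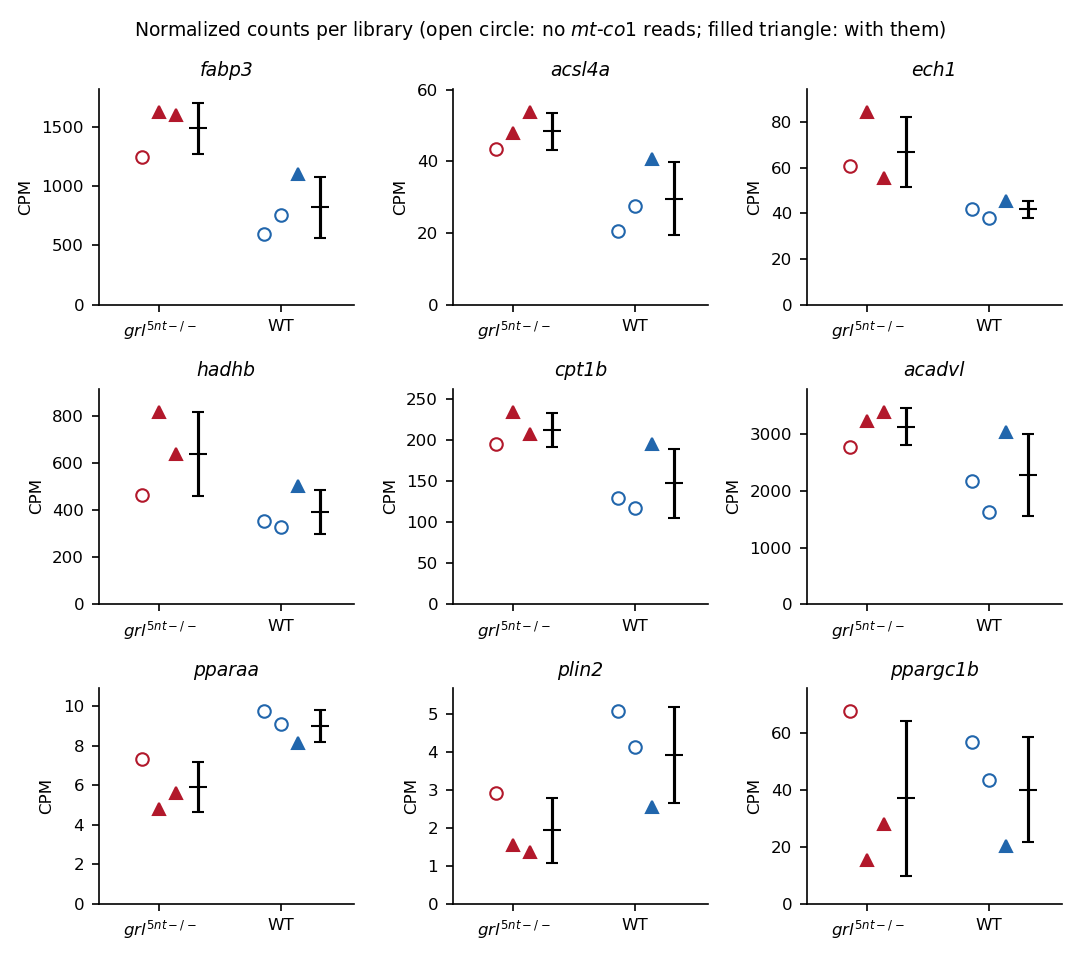
CPM of 9 members in every library (vertical axes from 0), grl5nt-/- left of WT. Open circles are libraries without mt-co1 reads, filled triangles those with them, and black marks give the mean and SD of 3 libraries. fabp3, acsl4a and ech1 separate the genotypes upwards and pparaa downwards, while ppargc1b follows the split within each genotype.

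The acyl-CoA synthetases join fatty acids to coenzyme A. All 5 tested had a log2 fold change above 0, with a median of 0.17, and all 5 were above 0 on both sides of the split. acsl4a, the gene of an isoform that prefers arachidonic acid in mammals (chromosome 14, 28132989 to 28153488), had 43.6, 47.8 and 53.7 CPM in grl5nt-/- libraries, against 20.4, 27.6 and 40.6 CPM in WT libraries. The groups did not overlap, although WT replicate 3 came close to the lowest mutant. edgeR gave 0.71 on the log2 scale (SE 0.27, adjusted p = 0.434), and the FPKM averages of 11.3 ± 1.41 in grl5nt-/- and 8.23 ± 1.17 in WT (SD, n = 3 each) did not overlap either. acsl1b, the chief isoform with 64.5% to 69.7% of the summed acsl FPKM in grl5nt-/- and 64.6% to 76.7% in WT libraries, had 538, 340 and 404 CPM in grl5nt-/- libraries, against 517, 416 and 297 CPM in WT libraries. acsl1b thus overlapped fully (log2 fold change 0.06, SE 0.30), and its highest value in each genotype came from a library without mt-co1 reads. acsl1a was of the same kind, with 61.3, 38.6 and 37.1 CPM in grl5nt-/- and 45.1, 41.4 and 35.2 CPM in WT libraries.

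In the carnitine shuttle, 3 of the 5 genes had a log2 fold change above 0 and the median was 0.26. cpt1b encodes the muscle isoform of the outer membrane step, which limits entry of long chains, and had 195, 235 and 207 CPM in grl5nt-/- libraries, against 129, 117 and 196 CPM in WT libraries. WT replicate 3 overlapped the mutants by a small margin (edgeR log2 fold change 0.53, SE 0.26, adjusted p = 0.505). cpt1ab, a gene of the liver isoform, was expressed at about the same FPKM as cpt1b and had 328, 294 and 210 CPM in grl5nt-/- libraries, against 258, 218 and 216 CPM in WT libraries. Accordingly cpt1b took 43.6%, 50.9% and 55.5% of the summed cpt1 FPKM in grl5nt-/- libraries, against 38.6%, 40.5% and 53.7% in WT libraries, and the share was above 50% only in the libraries with mt-co1 reads. cpt1aa was minor, with 1.64% to 2.30% of the cpt1 FPKM in grl5nt-/- and 1.83% to 3.60% in WT libraries, and a log2 fold change of -0.11 (SE 0.28). cpt2, the inner membrane enzyme, had 79.2, 98 and 78.2 CPM in grl5nt-/- libraries, against 70.5, 70.7 and 72.2 CPM in WT libraries. These did not overlap, yet the difference was small (log2 fold change 0.26, SE 0.20), and cpt2 FPKM overlapped at 18.8 ± 2.95 in grl5nt-/- and 19.5 ± 3.86 in WT (SD, n = 3 each).

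The acyl-CoA dehydrogenases and electron transfer flavoproteins were the group with the highest median, 0.45. Of its 10 genes, 9 had a log2 fold change above 0, none was called, none had an unadjusted p below 0.05 and none separated the genotypes in CPM. acadvl had 2782, 3230 and 3404 CPM in grl5nt-/- libraries, against 2180, 1625 and 3047 CPM in WT libraries (log2 fold change 0.46, SE 0.34). acadm, for medium chains, had 994, 1584 and 1187 CPM in grl5nt-/- libraries, against 753, 797 and 1240 CPM in WT libraries (log2 fold change 0.43, SE 0.33). In both genes WT replicate 3 lay among the mutants and the other WT libraries lay below all of them. acadl, for long chains, had 433, 723 and 579 CPM in grl5nt-/- libraries, against 381, 359 and 483 CPM in WT libraries (log2 fold change 0.51, SE 0.28). etfdh, which passes the electrons on to ubiquinone, had 237, 391 and 332 CPM in grl5nt-/- libraries, against 197, 180 and 268 CPM in WT libraries (log2 fold change 0.57, SE 0.28), and here the FPKM did not overlap, at 106 ± 8.92 in grl5nt-/- and 87.9 ± 6.99 in WT (SD, n = 3 each). Within each side of the split every etfdh value of a mutant exceeded every WT value. In CPM 8 of the 10 genes were higher in all 3 libraries with mt-co1 reads than in any without, as were 24.1% of all genes tested. That is the same direction as the genotype difference, and the mutant group held 2 of the libraries with mt-co1 reads and the WT group 1. In FPKM this separation along the split held for acadsb and etfb, but not for acad8, acadl, acadm, acads, acadvl or etfdh. FPKM lack the TMM factors, which raise the CPM of every gene in the libraries with mt-co1 reads relative to those without.

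The 10 genes of the later steps had a median log2 fold change of 0.35, with 8 above 0. ech1, an auxiliary isomerase for unsaturated chains (chromosome 15, 6930190 to 6949489), had 60.9, 84.4 and 55.6 CPM in grl5nt-/- libraries, against 41.8, 38.2 and 45.5 CPM in WT libraries. It had the lowest unadjusted p of all members (0.0163, adjusted p = 0.396, edgeR, 3 against 3 libraries), at 0.68 on the log2 scale (SE 0.23), and its difference was nearly equal on the sides of the split, 0.61 without mt-co1 reads and 0.59 with them. The span of ech1 overlaps mrps22 (at most 329 counts) by 5104 bases, so reads in the shared stretch may belong to either. In all, 17 members overlap another gene in this way. Among them are fabp3, with zcchc17 (8233 bases, at most 134 counts), and acadvl, with zgc:194312 (1355 bases, at most 3860 counts). For acad11, with 110 to 240 counts, the neighbour ackr4b had the larger count (9270 bases, at most 2220 counts).

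hadhb, the thiolase subunit of the mitochondrial trifunctional protein, had 462, 818 and 638 CPM in grl5nt-/- libraries, against 353, 328 and 500 CPM in WT libraries. WT replicate 3 overlapped the lowest mutant in CPM (edgeR log2 fold change 0.70, SE 0.31, adjusted p = 0.473), but not in FPKM, at 265 ± 34.7 in grl5nt-/- and 202 ± 13.6 in WT (SD, n = 3 each). The genes of the other subunit, hadhaa and hadhab, were expressed alike: hadhaa took 49.2% to 52.9% of their summed FPKM in grl5nt-/- and 47.6% to 49.4% in WT libraries. hadhaa had 380, 495 and 416 CPM in grl5nt-/- libraries, against 327, 278 and 372 CPM in WT libraries, and hadhab had 361, 404 and 367 CPM in grl5nt-/- libraries, against 327, 280 and 350 CPM in WT libraries. Neither overlapped between genotypes, with log2 fold changes of 0.40 (SE 0.24) for hadhaa and 0.24 (SE 0.22) for hadhab, and both overlapped in FPKM. The spans of hadhaa and hadhb share 37054 bases of chromosome 20, so reads there may be split between them, and the paralogues hadhaa and hadhab may share reads as well. echs1, the short chain hydratase, had 241, 334 and 282 CPM in grl5nt-/- libraries, against 202, 201 and 247 CPM in WT libraries (log2 fold change 0.40, SE 0.23). The thiolases acaa1 and acaa2 were the exceptions of the group, with log2 fold changes of -0.01 (SE 0.23) and -0.12 (SE 0.22).

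Of the 6 transcription regulators tested, 5 had a log2 fold change below 0, and the median was -0.13. pparaa, a gene of the receptor that activates fatty acid oxidation genes (chromosome 4, 18620563 to 18663699), had 7.32, 4.8 and 5.61 CPM in grl5nt-/- libraries, against 9.75, 9.11 and 8.16 CPM in WT libraries. Every mutant library lay below every WT library, and edgeR gave -0.60 on the log2 scale (SE 0.26, adjusted p = 0.471), with differences of -0.36 without mt-co1 reads and -0.64 with them. Its FPKM overlapped, at 2.26 ± 0.949 in grl5nt-/- and 4.18 ± 1.19 in WT (SD, n = 3 each). Its paralogue pparab had 7.25, 2.23 and 6.19 CPM in grl5nt-/- libraries, against 6.93, 3.61 and 2.49 CPM in WT libraries, and overlapped widely (log2 fold change 0.26, SE 0.52). pparda had 3.86, 0.171 and 0.871 CPM in grl5nt-/- libraries, against 2.46, 2.01 and 2.25 CPM in WT libraries, so its mutant libraries held both the highest and the lowest value, and the difference changed sign between the sides of the split (0.76 without mt-co1 reads and -2.09 with them). ppardb had 14.3, 8.91 and 10.3 CPM in grl5nt-/- libraries, against 15.8, 14.3 and 6.83 CPM in WT libraries.

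The coactivator genes differed along the split more than by genotype. ppargc1b had 67.7, 15.3 and 28.1 CPM in grl5nt-/- libraries, against 56.7, 43.4 and 20.3 CPM in WT libraries, and ppargc1a had 40.8, 10.4 and 19.9 CPM in grl5nt-/- libraries, against 32.9, 20 and 20 CPM in WT libraries. The log2 fold changes by genotype were -0.11 (SE 0.55) for ppargc1b and -0.03 (SE 0.46) for ppargc1a, whereas the log2 difference of libraries with over those without mt-co1 reads was -1.48 and -0.92. All 6 regulators were lower with mt-co1 reads, with a median of -0.93, beside -0.04 over all genes. Of them 3 did not overlap between the sides, where 27.1% of all genes tested were lower without overlap. For ppargc1a the margin was slight, with 19.99 CPM in WT replicate 2 and 19.96 CPM in WT replicate 3. With the split as a term, 4 of the 6 had a genotype log2 fold change above 0, against 1 without it, but pparaa stayed below at -0.50 (SE 0.20).

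**Figure D4:**
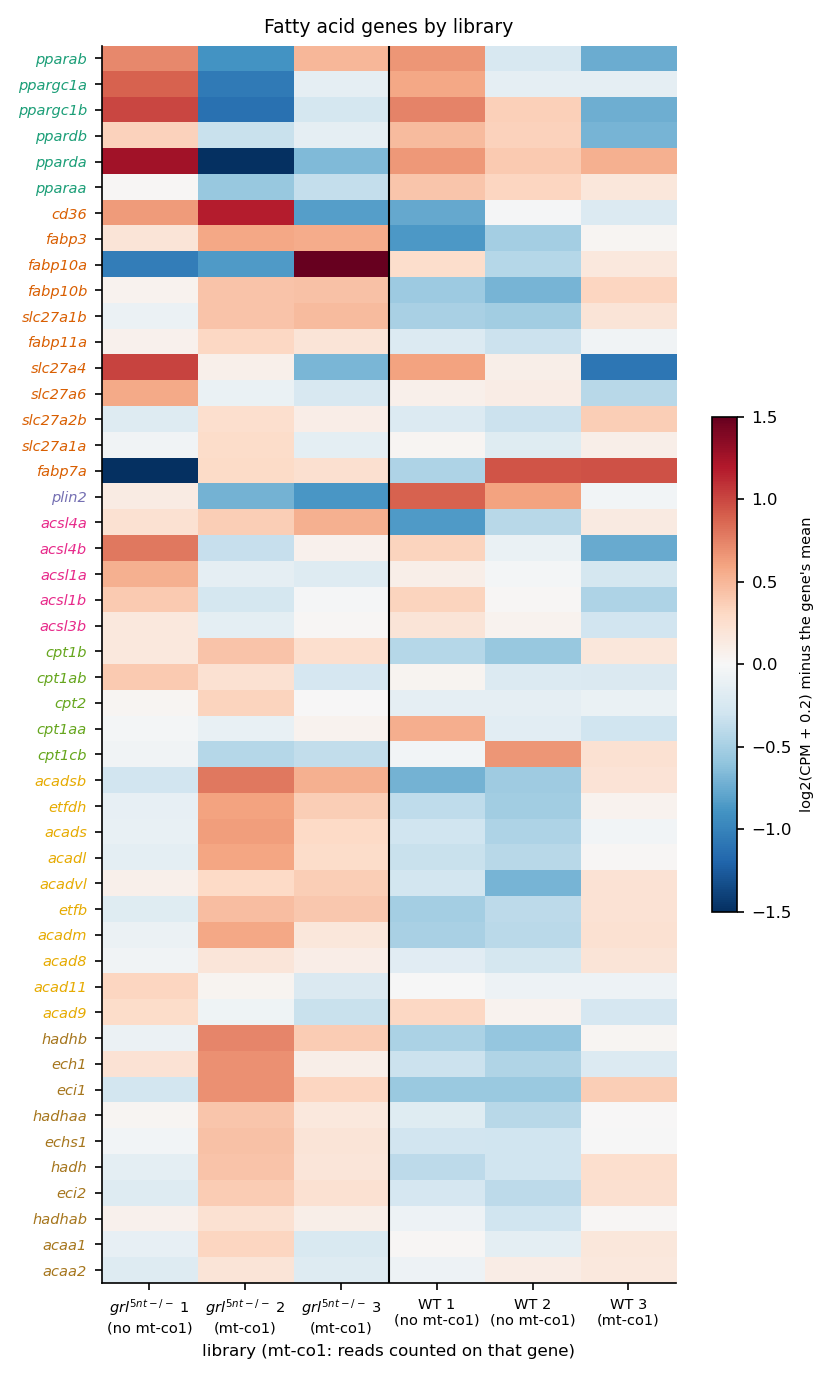
Log2(CPM + 0.2) of the 48 members tested, each minus its mean over the 6 libraries (colour), with the 3 grl5nt-/- libraries left of the black line and the 3 WT libraries right of it, and gene names coloured by role as in the plot of fold changes. Most dehydrogenases and later enzymes are red in grl5nt-/- replicates 2 and 3 and blue in WT replicates 1 and 2, and the coactivators ppargc1a and ppargc1b are red in grl5nt-/- replicate 1 and WT replicate 1.

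Of the lipid droplet coat genes only plin2 was tested. It coats droplets in most cell types, macrophages among them, and had 2.91, 1.54 and 1.35 CPM in grl5nt-/- libraries, against 5.08, 4.14 and 2.56 CPM in WT libraries. Only WT replicate 3 and grl5nt-/- replicate 1 overlapped, and edgeR gave -1.01 on the log2 scale (SE 0.43, adjusted p = 0.467). Macrophage markers ran the same way: all 4 found and tested were lower in grl5nt-/-, with 3 at an unadjusted p below 0.05 (background 6.35%), none called and none at 0. Their summed level was 182, 121 and 133 CPM in grl5nt-/- libraries, against 267, 278 and 131 CPM in WT libraries, which overlapped. The mutant sum was the lower one among the libraries without mt-co1 reads, whereas among those with them the WT sum lay between the mutant sums. Of the 4 epicardial markers 3 were also lower in grl5nt-/- (median log2 fold change -0.47, 1 at an unadjusted p below 0.05, none called, none at 0), with sums of 288, 403 and 376 CPM in grl5nt-/- libraries, against 331, 385 and 440.2 CPM in WT libraries, which overlapped. The part of either cell type in the plin2 and pparaa values was not tested, and in whole ventricles fewer cells of a type and less RNA per cell cannot be told apart. Erythrocyte genes ran in the direction of most enzymes, all 3 found being higher in grl5nt-/-, but none was called and none had an unadjusted p below 0.05. They summed to 18062, 35406 and 26850 CPM in grl5nt-/- libraries, against 7112, 16118 and 32901 CPM in WT libraries, which overlapped. Among the libraries with mt-co1 reads the WT sum lay between the mutant sums. All 3 genes were higher with mt-co1 reads (log2 differences of 1.19, 1.02 and 0.79 for hbaa1, alas2 and slc4a1a). The part of erythrocytes was likewise not tested. The summed cardiomyocyte level overlapped between the genotypes, and 3 of the 8 cardiomyocyte markers were above 0, with a median log2 fold change of -0.14.

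Of the adipocyte markers, 5 of the 8 found were tested and 1 was higher in grl5nt-/-. plin1, the adipocyte perilipin, had at most 2 counts in any library, lepa at most 4 and adipoqb at most 5. The other markers had reads in every library, with 42 to 104 counts for adipoqa, 5 to 44 for lipea, 4 to 27 for cidec and 2 to 27 for lepb. In grl5nt-/- replicate 1 lepb had 2 counts, below the limit of detection of 3. The complement factor gene cfd, at 634 to 1743 CPM over the 6 libraries, made up most of the summed adipocyte level. Enterocyte markers summed to 0.581 to 1.02 CPM in grl5nt-/- and 0.473 to 1.09 CPM in WT libraries. The exocrine pancreas list was higher in grl5nt-/- in all 5 genes tested, with 1 at an unadjusted p below 0.05 (ela2) and none called. It had sums of 99.1, 151 and 308 CPM in grl5nt-/- libraries, against 47.2, 57.2 and 141 CPM in WT libraries, which overlapped. Most of each sum came from ctrb1, which was higher with mt-co1 reads (log2 difference 1.47). The part of this list in the fatty acid genes was not tested.

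Differences by genotype and along the split both ran with transcript length, and the genotype trend was smaller with the split as a term. Over all genes in 5 bins of transcript length with equal numbers of genes, from short to long, the median log2 fold change of grl5nt-/- over WT was 0.16, 0.01, -0.04, -0.10 and -0.21, and the median difference of libraries with over those without mt-co1 reads was 0.26, 0.09, 0.00, -0.14 and -0.44. With the split as a term the genotype medians were 0.06, 0.00, -0.03, -0.04 and -0.06. In the same bins the members, of which there were 7 to 13 in each, had median log2 fold changes of 0.47, 0.19, 0.24, 0.38 and -0.11, above all genes in each bin. The regulators are long (median 4334 bases) and the later enzymes and dehydrogenases short (medians 2015 and 2396 bases). With the length trend taken out of each library the members' median was 0.39, beside 0.07 over all genes, and the regulators' median was 0.07, so the sign of the regulators depended on it.

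**Figure D5:**
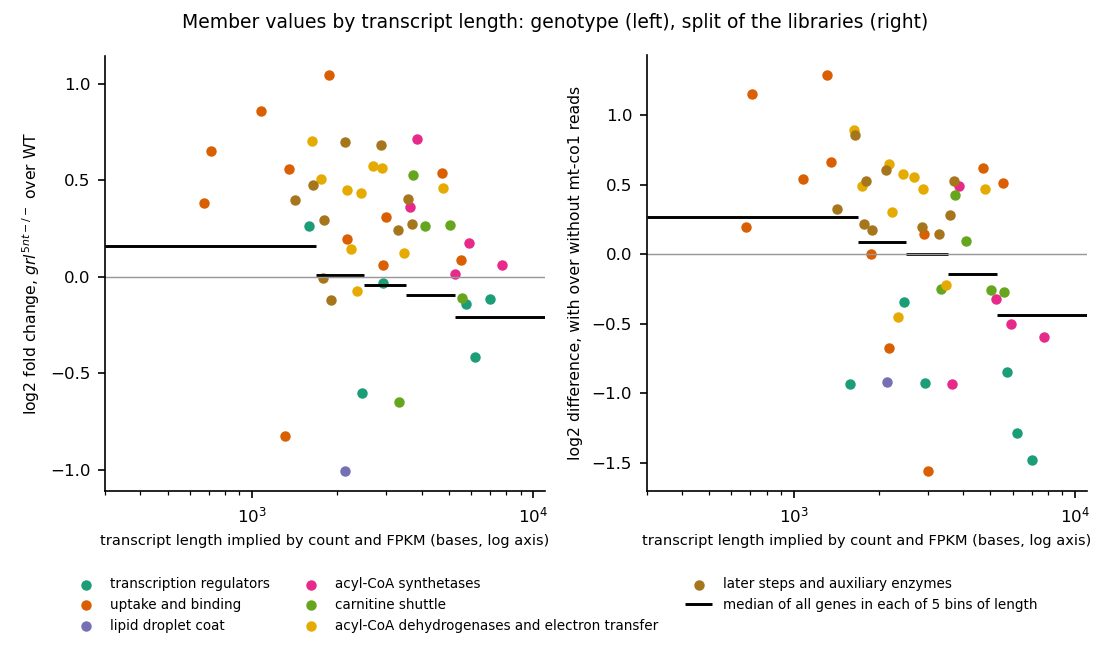
Transcript length implied by count and FPKM (horizontal log axis, bases) against the log2 fold change of grl5nt-/- over WT (left) and the log2 difference of libraries with over those without mt-co1 reads (right). Points are the 48 members coloured by role, and black lines are medians of all genes in each of the 5 bins of length, the outer bins reaching past the axis. Both black lines descend with length, and in the left panel most points lie above them.

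The members that were not tested numbered 13, each with at most 25 counts in every library. pparg, the receptor of adipocyte differentiation, had 0.271, 0.343 and 0.194 CPM in grl5nt-/- libraries, against 1.28, 0.355 and 0.311 CPM in WT libraries. fabp6 and the second identifier of slc27a1b had 0 counts in all 6 libraries. The intestinal gene fabp2 had at most 0.388 CPM, and fabp7b and fabp11b, like fabp1a and fabp1b.2, were at 0 in most libraries. The rest were fabp1b.1, slc27a2a, acsl3a, acsl5 and plin1.

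The table also held 4 genes of these families whose symbols are written in capitals and which the rule did not take. They were noticed after their values were seen. PLIN3, a perilipin of many tissues, had 85.9, 105 and 93.3 CPM in grl5nt-/- libraries, against 45.3, 40.04 and 60.7 CPM in WT libraries. The groups did not overlap in CPM or in FPKM (50.4 ± 5.79 in grl5nt-/- and 31.4 ± 3.00 in WT, SD, n = 3 each), and edgeR gave 0.96 on the log2 scale (SE 0.23, adjusted p = 0.249). It was past the threshold in edgeR with the term for the split (adjusted p = 0.0255), where 1.54% of all genes were. With that term and the length correction it was so too (adjusted p = 0.019), where 1.94% of all genes were. PLIN3 was thus higher in the mutant libraries where plin2 was lower. ETFA had 108, 203 and 211 CPM in grl5nt-/- libraries, against 87.3, 118 and 166 CPM in WT libraries, and overlapped (log2 fold change 0.49, SE 0.34). The second ACADSB gene and SLC27A3 had log2 fold changes of 0.77 (SE 0.39) and 0.06 (SE 0.34).

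A further 71 genes of lipid breakdown, synthesis, peroxisomal oxidation and fuel choice lay outside the rule, and 63 were tested. By edgeR 0 were called (background 0.0769%), and at an unadjusted p below 0.05 there were 3 higher (background 4.22%) and 2 lower (background 6.35%), near the shares over all genes. Of the 63, 27 had a log2 fold change above 0, with a median of -0.09, beside 36 of 48 and a median of 0.27 in the members, and 46.9% of all genes. The 3 with the lowest p were angptl4, pdk2b and dgat2. angptl4, a Ppar target that inhibits lipoprotein lipase, had 57.8, 35.4 and 36.9 CPM in grl5nt-/- libraries, against 19.7, 22.4 and 25.9 CPM in WT libraries (edgeR log2 fold change 0.94, SE 0.25, adjusted p = 0.319). pdk2b, of the pyruvate dehydrogenase kinases that restrain glucose oxidation, had 382, 488 and 245 CPM in grl5nt-/- libraries, against 112, 225 and 179 CPM in WT libraries (edgeR log2 fold change 1.11, SE 0.35, adjusted p = 0.391). The kinase genes pdk2a and pdk4 overlapped between genotypes, with log2 fold changes of -0.27 (SE 0.46) and -0.23 (SE 0.61). dgat2, which makes triglyceride, had 3.93, 2.91 and 3.97 CPM in grl5nt-/- libraries, against 12.3, 6.33 and 5.05 CPM in WT libraries (edgeR log2 fold change -1.13, SE 0.39, adjusted p = 0.404). Without WT replicate 1 the log2 fold change of dgat2 was -0.65. In CPM none of the 3 overlapped between genotypes, which held for 12 of the 63 genes and 15.6% of all genes in either direction, and in FPKM pdk2b and dgat2 did overlap. For a single gene of 3 against 3 libraries the exact permutation test cannot give less than 0.1.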

How the data were processed

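Per the labels, RNA of pooled ventricles was made into TruSeq libraries, and the authors used HISAT2 2.0.4 to map reads on GRCz10, and StringTie 1.3.0 for the FPKM. The deposited table holds, for 3 grl5nt-/- and 3 WT libraries, read counts and FPKM per gene; how the counts were made, and whether by strand, is not given in the sources used here. Counts were tested with edgeR 4.0.16 (TMM, filterByExpr, quasi-likelihood, two-sided, no covariate), adjusted over all genes tested; DESeq2 1.42.0 and limma 3.58.1 on log2(FPKM + 1) or log2(FPKM + 0.1), in R 4.3.3, were alternatives, as were filters, the replicate number as a block, a term for the mt-co1 split and leaving out each library. A length correction (loess, span 0.3) was added after seeing the data. The scripts were tested on simulated data. Single genes are named by fixed symbols and, with a mean of at least 1 FPKM, by lack of overlap between groups (largest changes), by the top FPKM in each role, and outside the rule by the lowest p. The members and lists were chosen with earlier results of these data known. p-values cover the spread between 3 pools per genotype. Promoter and protein sequences were not analysed here.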

Additional observations from a re-analysis of the deposited data

How the results depend on the processing

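The number of members called was 0 in every setting but those with a term for the split, where it was 1 (fabp3, adjusted p = 0.048, and 0.0419 with the length correction as well); angptl4 was past the threshold with both (log2 fold change 1.06, adjusted p = 0.032) and not with the term alone (0.98, adjusted p = 0.0513). The number at an unadjusted p below 0.05, 5 in the fit reported (10.6% of all genes), was 8 by DESeq2 (8.15%), 11 with the replicate number as a block (18.2%), 17 with the term for the split (18.1%), 21 with that term and the length correction (19.2%), and 0 to 13 on leaving out a library (4.95% to 26%). The block changed no call of a member. Same-numbered libraries correlated at 0.59, -0.34 and 0.39 in their deviations, so the numbers were not taken as pairs. The members' median log2 fold change was 0.24 to 0.32 on leaving out a library, and -0.041 and -0.048 by limma with pseudocounts of 1 and 0.1, where the median of all genes was -0.22 and -0.27. Over all genes 12 were called, and 231 by DESeq2, 132 with the block, 241 with the term for the split, 303 with the length correction added to it, 22 with the length correction alone and 39 without a filter.

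Signs turned in the genes given here, and no named gene was called in the fit reported. By limma with a pseudocount of 1 (and of 0.1) the log2 differences were -0.13 (-0.15) for acsl1a, -0.22 (-0.23) for acsl1b, -0.044 (-0.045) for cpt2, -0.24 (-0.25) for slc27a1a, -0.051 (-0.052) for hadhab, -0.049 (-0.051) for cpt1ab, -0.038 (-0.063) for pparab and -0.19 (-0.30) for fabp10a. ppargc1a gave 0.012 by DESeq2 and 0.0082 with its size factors. With the term for the split, ppargc1a, ppargc1b and ppardb gave 0.14, 0.27 and 0.18; with the length correction, 0.057, 0.073 and 0.096, and cpt1aa 0.13; with both, 0.22, 0.36 and 0.28, with cpt1aa at 0.090 and fabp10a at -0.018. On leaving out a library the log2 fold change ran from -0.074 to 0.31 for acsl1a, -0.11 to 0.27 for acsl1b, -0.039 to 0.78 for pparab, -0.071 to 0.15 for slc27a1a, -2.10 to 0.11 for pparda, -0.66 to 0.33 for ppargc1a, -0.86 to 0.26 for ppargc1b, -0.41 to 0.084 for ppardb, -1.04 to 1.11 for fabp10a and -0.26 to 0.21 for cpt1aa. Among genes whose sign held, leaving out a library moved the value by over 1.5 times for acadl (to 0.32 without grl5nt-/- replicate 2), acadm (0.24 without grl5nt-/- replicate 2, 0.71 without WT replicate 3), acadvl (0.28 without WT replicate 2, 0.74 without WT replicate 3), cpt2 (0.15 without grl5nt-/- replicate 2), cpt1ab (0.16 without grl5nt-/- replicate 1, 0.44 without grl5nt-/- replicate 3), and, without WT replicate 3, cpt1b (0.80), fabp10b (0.96) and slc27a1b (0.82), beside cd36, fabp7a and dgat2 as given above. The cause was not tested. Depth limited cd36, pparda, slc27a4 and the genes not tested, which had few counts.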
